A study of Mus musculus with 4 samples.

Results

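The transcription factor genes Fos, Fosb, Fosl1, Fosl2, Jun, Junb, Jund, Egr1, Atf3 and Myc were followed in RNA sequencing of mouse embryonic fibroblasts (MEFs). They were found by gene symbol from a list drawn up with earlier results of these data known, and all 10 were present among the 36846 gene symbols of the deposited table. The cells were wild type (WT, 2 libraries) or Dnmt3l knockout (Dnmt3l-KO, 2 libraries), and the study asked which genes may relate to the better outcome of nuclear transfer from knockout donor cells. Both genotypes shared the C57BL/6 strain, came from intercrosses of Dnmt3l+/- parents as embryos of day 13.5 to 14.5, were grown in DMEM with fetal bovine serum and were at passage 4. How many embryos or lines stood behind each genotype was not given in the sources used here. The p-values rest on the spread of these libraries alone, and part of that spread may be technical.

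The Fos and Jun proteins are basic leucine zipper factors that pair to form AP-1, a complex that binds a short palindromic DNA element. Jun proteins can pair with each other, whereas Fos proteins need a Jun partner. Fos, Fosb, Jun, Junb, Egr1, Atf3 and Myc are known as immediate early or early response genes, transcribed within minutes to hours of adding serum or growth factors to resting fibroblasts without the need for new protein. The messages of most of them decay fast, so their level in growing cells is low beside the peak after stimulation. Fosl1 and Fosl2 follow later and are kept up in growing fibroblasts, and Jund is expressed more evenly.

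Estimated counts totalled 40681328 to 51465395 per library. Dnmt3l itself had 6 counts and 1 count in WT against 0 in each Dnmt3l-KO library, around a floor of 3 counts, so it gave no check of the genotype labels. Each of 10 fibroblast markers was detected, with summed levels of 12695 to 13887 CPM (counts scaled to a common library size) in WT against 11968 to 16976 CPM in Dnmt3l-KO, highest in Dnmt3l-KO replicate 2. Markers of macrophages and leukocytes summed to 9.78 to 11.7 CPM in WT against 11.1 to 13.0 CPM in Dnmt3l-KO, and epithelial markers to 5.80 to 7.62 and 3.97 to 5.83 CPM with Krt5 and Krt14 at 0 in all libraries. Endothelial markers summed to 8.60 and 10.1 CPM in WT against 20.2 and 6.53 CPM in Dnmt3l-KO replicates 1 and 2, most of it Kdr, while the defining gene Cdh5 had at most 12 counts. Muscle markers, nearly all Des, summed to 17.0 and 16.9 CPM in WT against 27.3 and 16.3 CPM in Dnmt3l-KO. Myod1 had at most 2 counts. Neural markers, with Nes among them, summed to 164 and 128 CPM in WT against 156 and 129 CPM in Dnmt3l-KO. Fewer cells of a type and less RNA per cell cannot be told apart in such bulk samples.

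Compared per transcript length, Fosl2 and the Jun genes made up most of the AP-1 message in these fibroblasts, and Fos and Fosb were scarce. On FPKM values (fragments scaled by transcript length and library size) summed over each gene's transcripts, Fosl2 led with a range over the 4 libraries of 30.4 to 43.3 FPKM. Junb followed at 30.3 to 40.9 and Jun at 22.7 to 29.8 FPKM. Jund had 10.6 to 18.4, Myc 10.6 to 17.9, Egr1 8.30 to 14.6 and Fosl1 6.99 to 11.9 FPKM. Fos had 1.60 to 2.58 FPKM, Atf3 0.940 to 1.27 and Fosb 0.273 to 0.455 FPKM. Fosl2 and Junb overlapped in these ranges, as did each neighbouring pair in the run Jund, Myc, Egr1 and Fosl1. Junb lay above Jun in each library and by range, Jun above Jund, Fosl1 above Fos, Fos above Atf3 and Atf3 above Fosb. The plot of FPKM by gene shows the 7 genes at or above 6.99 FPKM apart from Fos, Atf3 and Fosb.

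**Figure D1:**
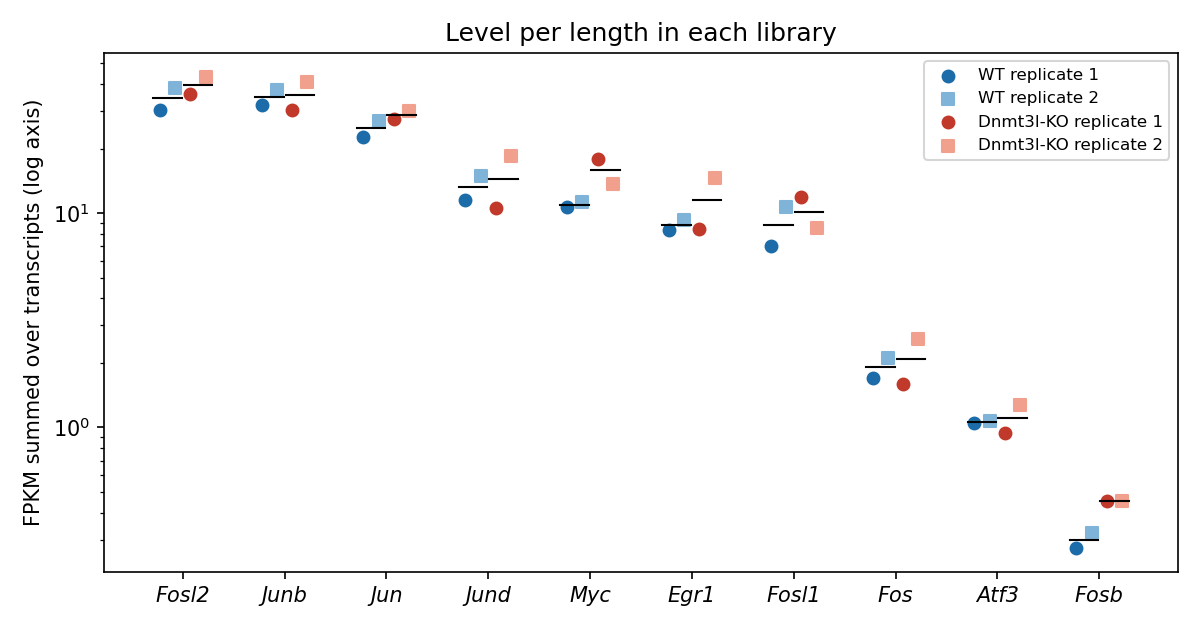
FPKM summed over transcripts (log axis) for the 10 genes in order of their mean, 1 point per library, with short black lines at the mean of each genotype (n = 2). Fosl2 spans 30.4 to 43.3 FPKM at the left and Fosb 0.273 to 0.455 FPKM at the right.

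Within the Fos family, Fosl2 took 77.2% and 74.5% of the summed FPKM in WT against 72.1% and 79.0% in Dnmt3l-KO. Fosl1 supplied 17.8% and 20.7% in WT against 23.8% and 15.5% in Dnmt3l-KO. Fos itself, the prototype of the family, supplied 4.32% and 4.11% against 3.21% and 4.70%. Fosb stayed under 1% in each library, at 0.694% and 0.628% in WT against 0.913% and 0.827% in Dnmt3l-KO. Only the Fosb share lay apart between the genotypes, and it rests on few counts.

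Within the Jun family the 3 genes were closer to each other. Junb held 48.4% and 47.3% of the family's FPKM in WT against 44.4% and 45.9% in Dnmt3l-KO, Jun 34.3% and 34.0% against 40.1% and 33.5%, and Jund 17.3% and 18.7% against 15.5% and 20.6%. The Junb share was lower in both Dnmt3l-KO libraries than in either WT library, whereas the shares of Jun and Jund overlapped. Summed, the Jun family had 66.3 and 79.2 FPKM in WT against 68.3 and 89.1 FPKM in Dnmt3l-KO. The Fos family had 39.4 and 51.5 FPKM in WT against 49.8 and 54.8 FPKM in Dnmt3l-KO. FPKM were taken as deposited, not on the library scaling of the CPM values, so gaps between libraries can differ between these scales. Junb, for example, had a mean of 34.8 FPKM in WT against 35.6 in Dnmt3l-KO, but 71.0 against 70.6 CPM. The ratio of Jun to Fos family message was 1.69 and 1.54 in WT against 1.37 and 1.63 in Dnmt3l-KO, so the genotypes overlapped. These shares and sums were not tested, since an exact permutation test of 2 libraries against 2 cannot give a two-sided p below 0.33.

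**Figure D2:**
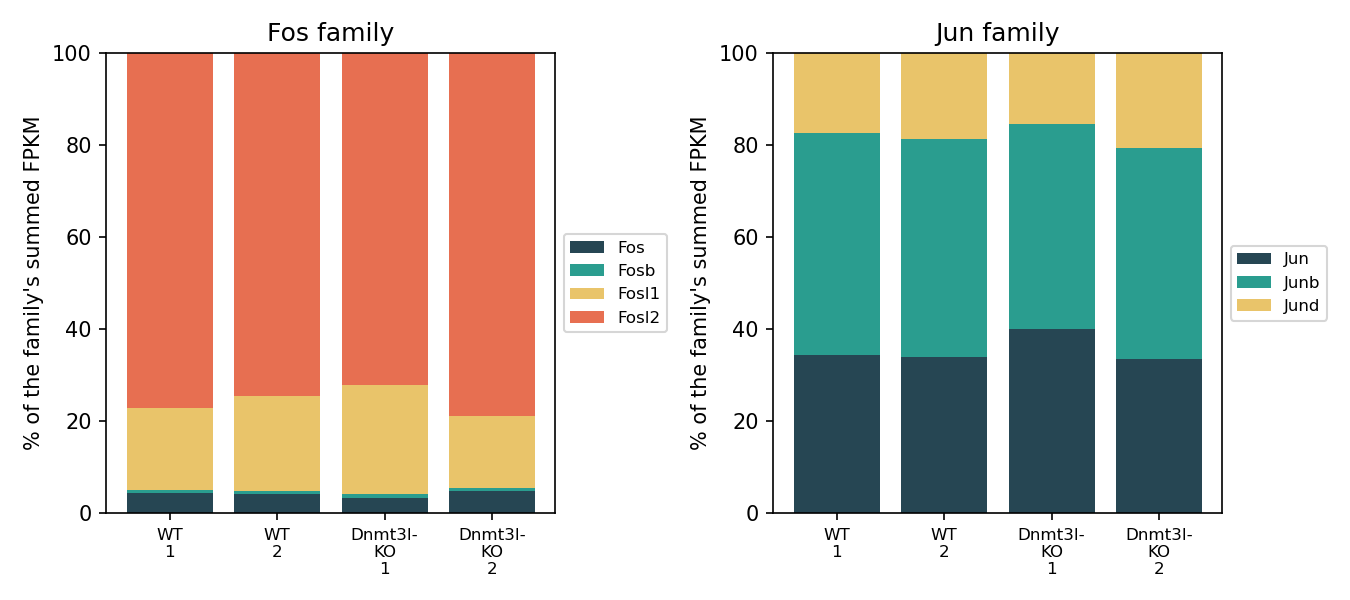
Share of each gene in the summed FPKM of the Fos family (left) and the Jun family (right), 1 bar per library. Fosl2 fills 72.1% to 79.0% of each Fos bar, and Junb 44.4% to 48.4% of each Jun bar.

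AP-1 and ATF factors are known to bind the promoters of their own genes, so the start regions of Jun, Fos and Atf3 are shown, a pair of low genes beside a high one. RefSeq promoter windows (GRCm38.p6, 250 bases before to 50 after the start) were at hand for 7 of the 10 genes, not for Fosl1, Egr1 and Myc. Each line runs 5′ to 3′ on the strand of the gene. Capitals mark TGACATCA in Jun, the variant AP-1 element known from that promoter, and TGACGT, the core of the cyclic AMP response element, in Fos and, on the other strand, in Atf3.
Jun, chr4:95052173-95052472, minus strand: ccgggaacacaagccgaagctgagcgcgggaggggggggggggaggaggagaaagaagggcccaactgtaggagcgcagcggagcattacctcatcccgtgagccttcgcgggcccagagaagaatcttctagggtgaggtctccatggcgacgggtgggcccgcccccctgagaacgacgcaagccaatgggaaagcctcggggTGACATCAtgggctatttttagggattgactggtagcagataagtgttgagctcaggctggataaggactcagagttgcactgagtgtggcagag
Fos, chr12:85473640-85473939, plus strand: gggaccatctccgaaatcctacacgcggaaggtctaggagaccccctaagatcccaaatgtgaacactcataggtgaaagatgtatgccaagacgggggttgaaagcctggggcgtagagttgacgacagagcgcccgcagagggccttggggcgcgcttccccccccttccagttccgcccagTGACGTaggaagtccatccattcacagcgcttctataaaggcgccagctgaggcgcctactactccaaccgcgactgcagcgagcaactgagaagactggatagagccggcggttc
Atf3, chr1:191183284-191183583, minus strand: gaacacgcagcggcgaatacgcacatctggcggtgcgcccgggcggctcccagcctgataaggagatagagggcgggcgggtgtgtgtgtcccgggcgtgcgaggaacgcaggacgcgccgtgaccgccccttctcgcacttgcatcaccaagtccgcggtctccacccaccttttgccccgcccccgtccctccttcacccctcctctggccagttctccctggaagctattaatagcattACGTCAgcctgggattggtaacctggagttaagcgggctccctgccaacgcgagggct

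Searched on both strands, TGACATCA was in 1 of the 7 windows (3.62% of all 32851 promoter windows), where it began 45 bases before the start of Jun. TGACGT was in 2 of 7 (7.51% of all), beginning 66 bases before the start of Fos and 8 before that of Atf3. The full element TGACGTCA, which contains TGACGT, was in 0 of 7 (1.79% of all), and the consensus AP-1 site TGAGTCA in 0 of 7 (5.20%). The CArG box, the site of serum response factor, was in 0 of 7 (1.63%), which says only that no such match lies in these windows. TATAAA was in 2 of 7, Junb and Fos (13.6%), GGGCGG in 5 of 7 (35.7%), CCAAT in 3 of 7 (37.4%) and CACGTG in 0 of 7 (7.15%). Jun with its match had 22.7 to 29.8 FPKM over the libraries. Fos and Atf3 with theirs had 1.60 to 2.58 and 0.940 to 1.27 FPKM. The windows of Fosl2 (30.4 to 43.3 FPKM), Junb (30.3 to 40.9), Jund (10.6 to 18.4) and Fosb (0.273 to 0.455) held neither TGACATCA nor TGACGT. Any relation of these matches to level was not tested. Motif matches are a description of these letters, not of binding.

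Between the genotypes, none of the 10 genes passed the test. edgeR's quasi-likelihood test over 14760 genes called 0 of the 10 at an adjusted p under 0.05, against 0.0203% of all genes tested, and the adjusted p was 0.999 for each of the 10. At an unadjusted p under 0.05 there was 1 of the 10, Myc, against 4.15% of all genes, and DESeq2's Wald test also called 0 of the 10 (0.166% of its genes). Of the 10 log2 fold changes (Dnmt3l-KO minus WT) 9 were positive, against 51.3% of all genes, and their median was 0.17 against 0.01 over all genes. The WT and Dnmt3l-KO libraries did not overlap for Fosb, Jun and Myc, all higher in Dnmt3l-KO, which is 3 of 10 where 16.2% of all genes did so in that direction. With 2 libraries a group the intervals are wide, and they allow differences of up to 1.26 on the log2 scale for Fosb and 0.995 for Egr1.

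**Figure D3:**
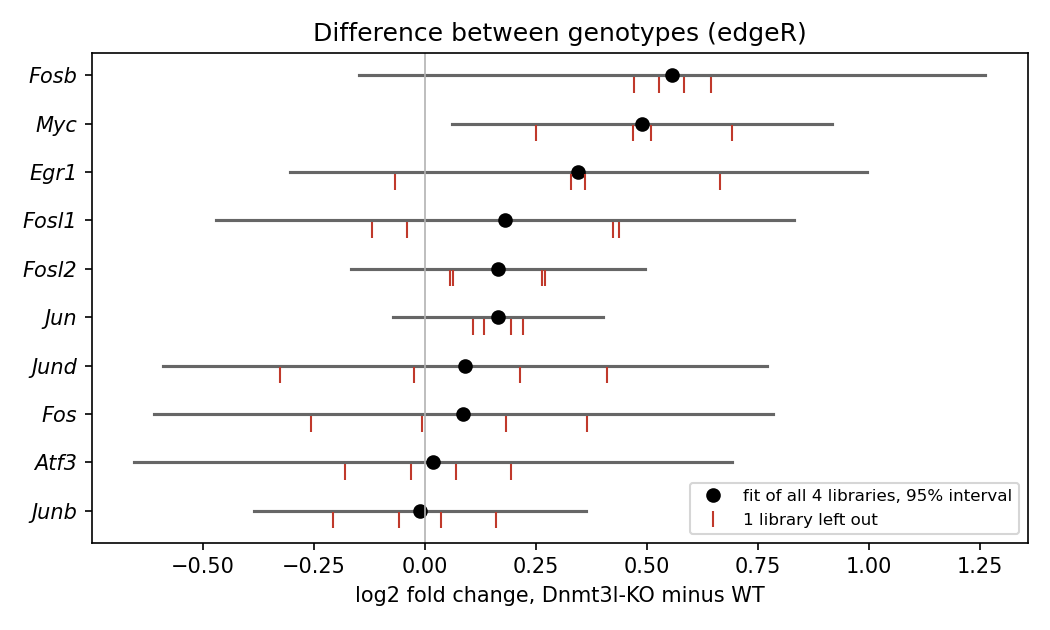
Log2 fold change of each gene (black point, Dnmt3l-KO minus WT, edgeR) with its 95% interval (grey line), and the fold change with each library left out in turn (red ticks). The interval spans 0 for each gene but Myc, whose interval runs from 0.06 to 0.92 before adjustment.

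Myc (chromosome 15, 61985341 to 61990361, GRCm38), the helix-loop-helix factor that drives growth and ribosome production, had 29.7 and 28.8 CPM in WT against 47.3 and 34.8 CPM in Dnmt3l-KO replicates 1 and 2. Both Dnmt3l-KO libraries lay above both WT libraries, and replicate 1 stood well above replicate 2. The mean was 29.2 ± 0.608 CPM in WT against 41.0 ± 8.80 CPM in Dnmt3l-KO (SD, n = 2 each), a log2 fold change of 0.49 ± 0.17 (SE, edgeR, unadjusted p = 0.032, adjusted p = 0.999). Leaving out Dnmt3l-KO replicate 1 brought it to 0.25 and leaving out Dnmt3l-KO replicate 2 to 0.69, the latter with an adjusted p of 0.243 in edgeR. Replicate 1 was also the Dnmt3l-KO library with the higher sum of each marker set but the fibroblast set, such as 20.2 CPM for endothelial and 27.3 CPM for muscle markers. Single genes carried much of this, as Kdr (17.5 and 4.81 CPM in replicates 1 and 2), Des (27.1 and 16.2 CPM) and Nes (100 and 50.9 CPM). Others went the other way, among them Tek, Sox2, Tubb3 and Map2. The part of other cells in the Myc value was not tested.

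The Myc count is the sum of 4 RefSeq transcripts. NM_001177352.1 had 389 and 365 estimated counts in WT against 921 and 543 in Dnmt3l-KO, and NM_010849.4 had 712 and 443 against 892 and 531. The remaining pair, NM_001177353.1 and NM_001177354.1, had the same value as each other in each library, 148 and 197 in WT against 273 and 191 in Dnmt3l-KO. NM_001177352.1 made up 27.8% (95% Wilson interval 25.6 to 30.3) and 30.4% (27.8 to 33.0) of the gene's counts in WT, and 39.0% (37.1 to 41.0) and 37.3% (34.8 to 39.8) in Dnmt3l-KO. These intervals cover counting error only, and the way reads of overlapping transcripts were divided was not given in the sources used here. NM_001177352.1 and NM_010849.4 carry the same label, transcript variant 1, so the split of counts between them is uncertain. The remaining pair is likewise labelled transcript variant 2 in both records. In the authors' deposited table NM_001177352.1 had a log2 fold change of 0.73 with a p-value of 0.0084 and an adjusted p of 0.414. The other 3 Myc transcripts had p-values of 0.443 and above. No Myc transcript passed there, where 0.441% of the transcripts with an adjusted p did.

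Among the Fos family, Fosb (chromosome 7, 19302696 to 19310118), which encodes an AP-1 subunit known for its induction in neurons, was the lowest of the 10. It had 55 and 55 counts in WT against 93 and 75 counts in Dnmt3l-KO, or 1.17 and 1.32 against 1.86 and 1.79 CPM. Both Dnmt3l-KO libraries lay above the WT libraries, and the log2 fold change was 0.56 ± 0.28 (SE, edgeR, unadjusted p = 0.098). On log2(FPKM + 1) values, a scale that compresses so low a gene, it was 0.16. The split over its 3 RefSeq transcripts moved widely between libraries. NM_008036.2 had 5 and 32 counts in WT against 76 and 65 in Dnmt3l-KO. The predicted XM_006539543.1 had 13 and 23 against 1 and 1, and the predicted XM_006539544.1 had 37 and 0 against 16 and 9. WT replicates 1 and 2 thus differed from each other in all 3 transcripts while their sums were equal, so the transcript values are uncertain.

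Fosl2 (chromosome 5, 32136472 to 32157840), also called Fra-2 and the main Fos family message here, had 208 and 240 CPM in WT against 233 and 270 CPM in Dnmt3l-KO. The groups overlapped, replicate 2 was above replicate 1 in both genotypes by 0.21 on the log2 scale, and the fold change was 0.17 ± 0.13 (SE, log2, 95% interval -0.17 to 0.50). It was 0.056 with Dnmt3l-KO replicate 2 left out and 0.065 without WT replicate 1, against 0.26 with Dnmt3l-KO replicate 1 left out and 0.27 without WT replicate 2. Fosl1 (chromosome 19, 5447698 to 5455938), or Fra-1, had 13.9 and 19.3 CPM in WT against 22.3 and 15.3 CPM in Dnmt3l-KO. Its libraries overlapped and its replicates moved in opposite directions in the 2 genotypes. Its log2 fold change of 0.18 ± 0.25 (SE) turned to -0.12 with Dnmt3l-KO replicate 1 left out and to -0.041 without WT replicate 1. In the GENCODE annotation Fosl1 shares 1163 exonic bases with Ccdc85b on the opposite strand. Whether reads of the pair were told apart there is unknown, as the strand setting was not given in the sources used here. Ccdc85b had 13.0 and 14.5 CPM in WT against 10.3 and 12.7 CPM in Dnmt3l-KO.

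Fos (chromosome 12, 85473890 to 85477274), the inducible partner of Jun, had 4.16 and 4.74 CPM in WT against 3.73 and 5.74 CPM in Dnmt3l-KO. The Dnmt3l-KO libraries lay on either side of the WT libraries, and the log2 fold change of 0.09 ± 0.27 (SE) had a 95% interval of -0.61 to 0.78. It was 0.36 without Dnmt3l-KO replicate 1, -0.26 with Dnmt3l-KO replicate 2 left out, and -0.0064 without WT replicate 1.

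Of the Jun family, Jun (chromosome 4, 95049036 to 95052222), the founding member and the strongest activator of AP-1 targets, was the steadiest of the 10. It had 84.4 and 91.3 CPM in WT against 96.4 and 101 CPM in Dnmt3l-KO. The groups did not overlap, but the WT libraries differed from each other by more than WT replicate 2 differed from Dnmt3l-KO replicate 1. The mean was 87.8 ± 4.86 against 98.5 ± 2.98 CPM (SD, n = 2 each), a log2 fold change of 0.17 ± 0.09 (SE, edgeR, unadjusted p = 0.134) that lay between 0.11 and 0.22 with any 1 library left out. Its exons share 232 bases with the antisense gene Junos, which had 2.27 to 2.89 CPM.

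Junb (chromosome 8, 84976909 to 84978748), which can oppose Jun at AP-1 sites, had 68.7 and 73.4 CPM in WT against 61.6 and 79.6 CPM in Dnmt3l-KO. The Dnmt3l-KO libraries enclosed the WT libraries, and the log2 fold change was -0.01 ± 0.15 (SE, 95% interval -0.38 to 0.36). It was 0.022 on log2(FPKM + 1) values, and 0.16 and -0.21 without Dnmt3l-KO replicate 1 and replicate 2. Junb shares 173 exonic bases with Prdx2 on the opposite strand, a more abundant gene with 10160 to 14577 counts per library.

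Jund (chromosome 8, 70697739 to 70700616), the member of the family that is often linked to slow growth, had 38.8 and 45.7 CPM in WT against 33.7 and 56.3 CPM in Dnmt3l-KO. Here too the Dnmt3l-KO libraries enclosed the WT libraries, and the range over all libraries, 0.74 on the log2 scale, was the widest of the 10. The log2 fold change was 0.09 ± 0.26 (SE), and it was 0.41 and -0.33 without Dnmt3l-KO replicate 1 and replicate 2, and -0.025 without WT replicate 1. Of its 2 RefSeq transcripts, NM_001286944.1 held 32.1% (95% Wilson interval 30.0 to 34.3) and 25.8% (23.9 to 27.8) of the counts in WT, and 46.6% (44.2 to 49.0) and 37.7% (35.8 to 39.7) in Dnmt3l-KO. Both shares were higher in Dnmt3l-KO, while the counts of the second, NM_010592.5, overlapped at 1240 and 1415 in WT against 899 and 1465 in Dnmt3l-KO. How often a transcript share lies apart in this way over all genes was not counted. Both records carry the same label, transcript variant 1, so the split of counts between them is uncertain. How their reads were divided was not given in the sources used here, and the Wilson intervals cover counting error only. The authors' deposited table gave NM_001286944.1 a log2 fold change of 0.52 with a p-value of 0.045 and an adjusted p of 0.904. Exons of Jund share 877 bases with the antisense gene Gm11175, for which no count was used here.

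**Figure D4:**
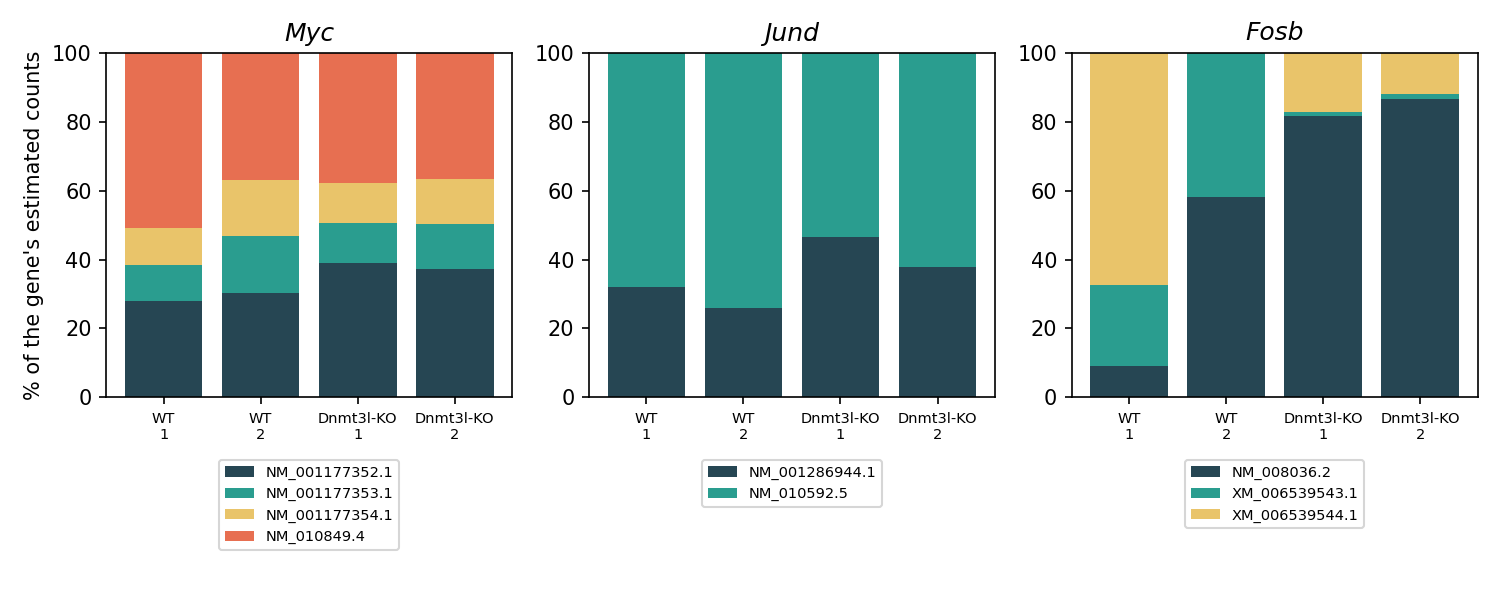
Share of each RefSeq transcript in the estimated counts of Myc, Jund and Fosb, 1 bar per library. The dark lowest part is larger in both Dnmt3l-KO bars than in either WT bar of its panel. It is NM_001177352.1 for Myc (27.8% to 39.0%), NM_001286944.1 for Jund (25.8% to 46.6%) and NM_008036.2 for Fosb (9.09% to 86.7%). For Myc and Jund it shares the label transcript variant 1 with another record in the bar, NM_010849.4 and NM_010592.5. The split between such records, and over the Fosb transcripts, is uncertain. How often such a share lies apart between the genotypes over all genes was not counted.

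Egr1 (chromosome 18, 34861207 to 34864956), a zinc finger factor induced by serum through the same kind of promoter elements as Fos, had 29.7 and 30.3 CPM in WT against 28.7 and 47.6 CPM in Dnmt3l-KO. The WT libraries and Dnmt3l-KO replicate 1 lay close together, and Dnmt3l-KO replicate 2 alone was high. The log2 fold change of 0.35 ± 0.25 (SE, edgeR, unadjusted p = 0.228) therefore rests on 1 library. It was -0.066 without Dnmt3l-KO replicate 2, and 0.66 without replicate 1 (edgeR, adjusted p = 0.273). Atf3 (chromosome 1, 191170296 to 191183333), a stress-induced factor that pairs with Jun proteins, had 2.42 and 2.25 CPM in WT against 2.06 and 2.68 CPM in Dnmt3l-KO. Its 94 to 114 counts per library overlapped between the genotypes, with a log2 fold change of 0.02 ± 0.26 (SE, 95% interval -0.65 to 0.69). That value changed sign in 3 of 13 other settings, reaching -0.18 without Dnmt3l-KO replicate 2 and 0.19 without replicate 1.

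The libraries of the same genotype differed from each other in most of these genes, and mostly more so in Dnmt3l-KO, as over all genes. The 2 Dnmt3l-KO libraries were further apart than the WT libraries on the log2 CPM scale for 8 of the 10 genes. That held for 65.2% of all genes tested, so it is not particular to the 10. Jun and Fosb were the exceptions, and Fosl2 differed by 0.208 in Dnmt3l-KO against 0.206 in WT. Replicate 2 minus replicate 1 was 0.74 for Jund, 0.73 for Egr1, 0.62 for Fos, 0.37 for Junb and 0.37 for Atf3 in Dnmt3l-KO. It was -0.54 for Fosl1 and -0.44 for Myc there, so these 2 genes were higher in replicate 1, where the others named were lower. In WT the same difference was 0.24 for Jund, 0.03 for Egr1, 0.19 for Fos, 0.48 for Fosl1 and -0.04 for Myc. Summed fibroblast markers were also highest in Dnmt3l-KO replicate 2 (16976 CPM) and lowest in Dnmt3l-KO replicate 1 (11968 CPM). Much of that gap lay in Col1a1, at 3206 CPM in Dnmt3l-KO replicate 1 and 5891 in replicate 2, and Col1a2, at 1987 and 3853. Of these markers only Vim (4667 and 4356 CPM) and S100a4 (1212 and 914 CPM) went the other way. The part of the markers in the differences was not tested.

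**Figure D5:**
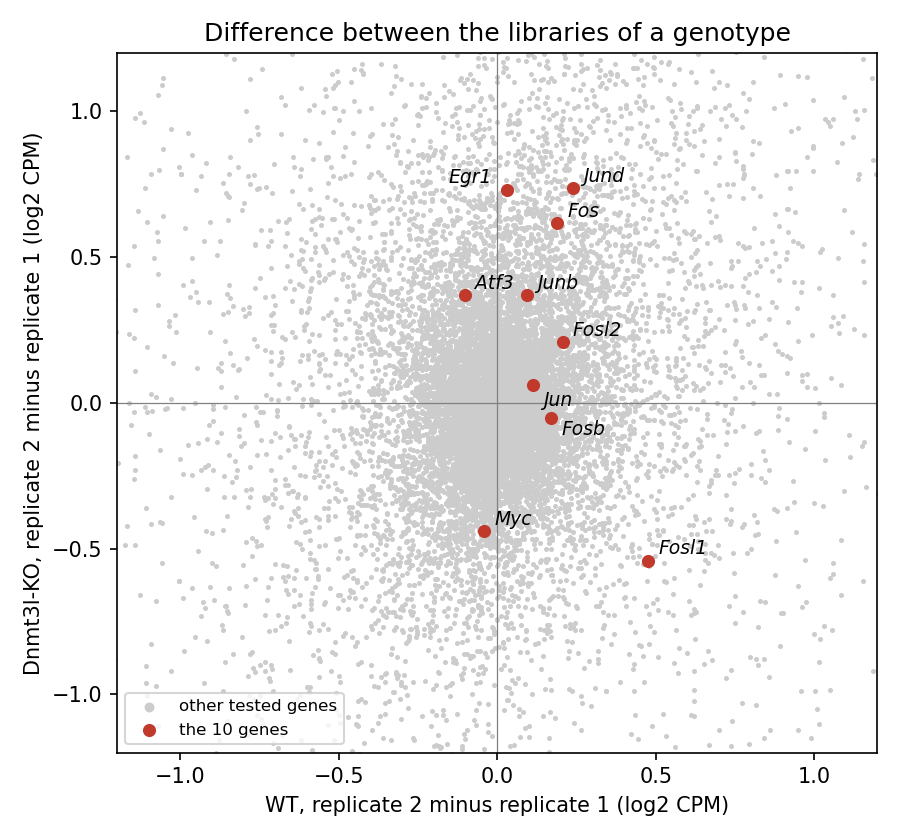
Replicate 2 minus replicate 1 on the log2 CPM scale in WT (x axis) and Dnmt3l-KO (y axis), red for the 10 genes and grey for the other tested genes within the axis limits. Jund, Egr1 and Fos lie at 0.74, 0.73 and 0.62 on the y axis, and Fosl1 and Myc at -0.54 and -0.44.

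Jund, which had the widest range, was compared with the 14750 other tested genes by the Euclidean distance between mean-centred log2 CPM profiles over the 4 libraries. The nearest were Rab27a (distance 0.025), Pitx1 (0.044), Neto2 (0.045), Lefty1 (0.050) and Tbx15 (0.051). Tbx15, for example, had 54.7 and 61.6 CPM in WT against 46.5 and 78.6 CPM in Dnmt3l-KO, enclosing WT as Jund did. With 4 libraries and so many genes, close profiles are a description only.

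Further lists of genes that work with these factors were read from the same fit, and 0 of their tested members passed in edgeR or in DESeq2. Of 15 tested leucine zipper partners of AP-1, 0 had an unadjusted p under 0.05 in edgeR (4.15% of all genes tested). Without overlap 3 lay above WT (16.2% of all) and 1 below (16.5% of all), and the median log2 fold change was 0.09. Atf4, the stress response factor, and Atf5 were the most abundant per length, at 78.3 to 101 and 26.2 to 39.1 FPKM. Mafg and Creb1 were among the 3 with the smallest p, with 58.3 ± 7.33 CPM in WT against 67.8 ± 3.31 CPM in Dnmt3l-KO for Mafg and 43.9 ± 4.13 against 38.8 ± 1.85 CPM for Creb1 (SD, n = 2 each).

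Of 56 other tested immediate early genes, 5 had an unadjusted p under 0.05 upward and 2 downward in edgeR, against 4.15% of all genes in either direction. Without overlap 10 lay above WT and 7 below, near the 16.2% and 16.5% of all genes, and the median log2 fold change was 0.01. The upward 5 were Zfp36 and Zfp36l1, which encode proteins that bind AU-rich elements and speed the decay of messages such as that of Fos, and Nr4a1, Klf4 and Per1. Zfp36 had 15.1 and 14.9 CPM in WT against 18.6 and 18.5 CPM in Dnmt3l-KO, and Zfp36l1 had 23.2 ± 1.52 and 36.6 ± 10.6 CPM (SD, n = 2 each). The downward pair was the chemokine gene Ccl2 (47.3 ± 5.71 and 31.0 ± 1.51 CPM, log2 fold change -0.61 ± 0.12 SE) and Gadd45b. Nr4a1, Klf4, Per1 and Gadd45b were named after their values were seen. The most abundant per length were Ctgf and Cyr61, secreted matricellular proteins, at 245 to 460 and 206 to 290 FPKM. Ctgf had 1044 and 846 CPM in WT against 1226 and 627 CPM in Dnmt3l-KO, highest in Dnmt3l-KO replicate 1 and lowest in replicate 2.

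In the Myc network 0 of 15 tested genes passed in edgeR (0.0203% of all genes), and 2 had an unadjusted p under 0.05 (4.15% of all genes), both upward. They were Max, the obligate partner of Myc, with 52.4 and 52.0 CPM in WT against 61.0 and 61.9 CPM in Dnmt3l-KO, and Trrap, a cofactor that Myc recruits, with 169 and 167 against 212 and 200 CPM. Neither overlapped between the genotypes, and their log2 fold changes were 0.23 ± 0.09 and 0.29 ± 0.09 (SE, edgeR, adjusted p = 0.999 for both). Mnt, a repressor that competes for Max, had 15.4 ± 0.390 and 19.8 ± 3.35 CPM. The network had 5 genes above WT without overlap and 0 below, where 16.2% and 16.5% of all genes did so, and its median was 0.04. Fbxw8, of the other genes in that list, was abundant and overlapped, at 19.5 to 24.6 FPKM.

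The 30 tested Myc targets were balanced, with 15 positive and 15 negative fold changes, a median of 0.01 and 0 at an unadjusted p under 0.05 in edgeR (4.15% of all genes). Without overlap, 4 were above WT and 8 below, against 16.2% and 16.5% of all genes. Npm1, which encodes the nucleolar protein nucleophosmin, had 602 ± 56.6 CPM in WT against 504 ± 16.1 CPM in Dnmt3l-KO, below WT in both libraries. Ccnd2 (1212 ± 133 and 1564 ± 335 CPM), a D-type cyclin gene, and Ppan (23.6 ± 1.18 and 27.2 ± 1.28 CPM), a ribosome assembly gene, lay above. Ldha, of lactate production, overlapped and was the most abundant per length at 503 to 646 FPKM.

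Of 29 tested genes that carry growth factor signals to serum response factor and AP-1, 2 had an unadjusted p under 0.05 in edgeR, both upward, near the 4.15% of all genes, and the median was 0.04. Mkl2, a coactivator of serum response factor, had 55.0 and 55.8 CPM in WT against 68.2 and 69.5 CPM in Dnmt3l-KO, and the log2 fold change was 0.31 ± 0.09 (SE, adjusted p = 0.999). Mapk7, the kinase ERK5, had 15.1 and 15.3 against 18.4 and 19.0 CPM. Mapk3, the kinase ERK1, had 67.9 and 68.7 against 90.2 and 74.2 CPM, and Map2k1 (MEK1), among the 2 most abundant per length, had 44.3 to 48.0 FPKM.

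Of 20 tested AP-1 targets, 1 had an unadjusted p under 0.05 in edgeR, near the 4.15% of all genes, and the median was 0.0041. That gene, Tgfb1, which encodes the growth factor TGF-beta 1, had 28.9 and 26.3 CPM in WT against 41.9 and 38.4 CPM in Dnmt3l-KO, and the log2 fold change was 0.54 ± 0.11 (SE, edgeR, unadjusted p = 0.0042, adjusted p = 0.999). DESeq2 gave Tgfb1 an adjusted p of 0.373. Ccnd1, the cyclin D1 gene, had 374 and 445 against 466 and 495 CPM, and the gap junction gene Gja1 had 323 and 364 against 352 and 524 CPM. Timp1, a metalloprotease inhibitor, had 555 ± 17.2 and 512 ± 21.5 CPM.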

How the data were processed

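RNA depleted of ribosomal RNA was sequenced from 2 WT and 2 Dnmt3l-KO libraries with random primers, per the labels' protocols. The submitters' processing notes name build mm10 and the tools DESeq2 1.8.0, eXpress 1.4.1, Cufflinks 2.2.1 and TopHat2 2.0.12, with roles not given in the sources used here. The authors deposited FPKM values and estimated counts for every RefSeq transcript, per the file headers, and their own comparison with a mean signal, a log2 fold change and its standard error, a test score and p-values.

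The estimated counts, whole numbers as deposited, were summed per gene symbol over 116415 transcripts. Dnmt3l-KO was compared with WT by edgeR 4.0.16 (R 4.3.3; robust quasi-likelihood F-test, TMM, expression filter) on 14760 genes, p-values adjusted by Benjamini-Hochberg and a threshold of 0.05. Standard errors and 95% intervals were derived from the F statistic. A count of 3 served as the floor, 0.0601 to 0.0719 CPM, for counting error only. In counts simulated for this comparison over 14760 genes, the test recovered 18% of changes of 1.5-fold, 76% of 2-fold and 98% of 4-fold, with 8 unchanged genes among 154 calls. The simulated counts took the spread fitted for each gene's level, without spread of its own, and held 50 planted changes at each fold. The data gave 3 calls, so recovery there may be lower. Replicates of a genotype differed by more than sampling noise (chi-square per degree of freedom 30.5 in WT and 91.1 in Dnmt3l-KO). Positions came from the RefSeq table of GRCm38.p6 and shared exons from GENCODE M21 of the same build. A search of its transcripts with blastn 2.17.0 (megablast), short matches left out, found no match outside those overlapping genes. Alternatives were other normalizations, no filter, DESeq2 1.42.0, limma 3.58.1 (voom, and log2 FPKM with a pseudocount of 1 or 0.1), the replicate number as a block, and each library left out.

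The 10 genes and the lists were chosen with earlier results of these data known. Genes named from a list are its 3 with the smallest p and its 2 with the highest FPKM, and those said to be named otherwise, and 3 genes the rule takes are not reported here. The profile comparison used the gene of the 10 with the widest range.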

Additional observations from a re-analysis of the deposited data

How the results depend on the processing

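In the 13 other settings, 0 of the 10 genes and 0 members of the further lists were called, and 14 of 130 gene values had the opposite sign. Fosb, Fosl2, Jun and Myc kept a positive sign in all 13. Junb was 0.022 in limma on log2(FPKM + 1) and on log2(FPKM + 0.1), and Atf3 was -0.0040 in limma-voom. With each library left out in turn, values ran from -0.21 to 0.16 for Junb, -0.18 to 0.19 for Atf3, -0.26 to 0.36 for Fos, -0.12 to 0.44 for Fosl1, -0.33 to 0.41 for Jund, -0.066 to 0.66 for Egr1, and from 0.056 to 0.27 for Fosl2. The causes were not tested. The count over all genes, 3 in edgeR, was 8 with no filter, 31 in DESeq2, 6 in limma on log2(FPKM + 1) values, 9 with a pseudocount of 0.1, and 2 to 6 with a library left out, where a lone library of a genotype is assumed to vary like the other group. The replicate block, for which the labels give only shared numbers (correlation of the replicate differences over genes 0.0999), called 4 genes and 0 of the 10, with Myc at 0.47. Fosb, Atf3 and Fos, at 55 to 240 counts per library, had the fewest counts of the 10.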
